A study of Mus musculus with 4 samples.

Results

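The 8 genes described here encode 6 subunits of nicotinic acetylcholine receptors (Chrna9, Chrna10, Chrna1, Chrnb1, Chrng and Chrnd), the receptor anchor rapsyn (Rapsn) and acetylcholinesterase (Ache). They were picked by symbol from the 23420 genes that each of the 4 deposited tables lists, and all 8 were found and passed the minimum of reads for testing. The set was chosen from earlier results of the same data, namely their levels in hair cells and the fall of Ache in treated hair cells. Hair cells sorted from the newborn mouse cochlea carried abundant transcripts for both subunits of the efferent acetylcholine receptor, Chrna9 and Chrna10, and for 2 subunits of the embryonic muscle receptor, Chrna1 and Chrng. They held almost none for the muscle delta subunit Chrnd or for the receptor anchor Rapsn. After 3 h of gentamicin the scores of Chrna9, Chrna10 and Chrna1 in hair cells stood at 89.7% to 101% of the control, Chrng at 69.0% and the acetylcholinesterase gene Ache at 24.0%, each after 1 was taken off the score. For these 8 genes the gentamicin difference in hair cells, its difference from the one in non-hair cells, and the difference between the control populations are therefore given as descriptions, with a standard error (SE) and no test. Their gentamicin difference in non-hair cells, and every comparison of the other cholinergic genes, was tested.

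Efferent neurons of the brainstem release acetylcholine onto hair cells. The receptor there is built of the alpha9 and alpha10 nicotinic subunits, lets calcium in, and acts with the calcium-activated potassium channel SK2, the product of Kcnn2, to inhibit the hair cell; before the onset of hearing this synapse is found on inner hair cells. The muscle receptor is a different pentamer made of alpha1, beta1 and delta subunits with gamma in the embryo or epsilon in the adult, held at the endplate by rapsyn, the product of Rapsn. Acetylcholinesterase splits acetylcholine in the synaptic cleft, where the collagen tail encoded by Colq anchors one of its forms.

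Cochleae were taken at postnatal day 1 from CD-1 mice that carried an Atoh1-GFP transgene, in which an enhancer of the hair cell factor Atoh1 drives GFP, and were cultured overnight. GFP-positive cells were sorted as hair cells with the weakly positive cells left out, and GFP-negative cells as a mixed non-hair cell population that holds supporting cells, the flanking epithelial ridges and other tissue of the dissection. Each population came from untreated cultures or from cultures given 0.5 mM gentamicin, an aminoglycoside antibiotic toxic to hair cells, for 3 h. This gave 4 groups of 3 biological replicates with 22399444 to 28150850 reads on genes per replicate. Penicillin was in the medium of all groups.

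The unit of the files is a score, the number of reads on a gene scaled in each replicate with 1 added, so that a score of 1 marks no reads and 1 read is worth 0.0352 to 0.0461. The sort was checked on 6 hair cell and 6 supporting cell markers. All 6 hair cell markers, among them Atoh1 and Myo6, were higher in control hair cells than in control non-hair cells, and their summed score less 1 was 10552 to 10984 against 195 to 233. The 6 supporting cell markers summed to 696 to 781 in control hair cells and 559 to 962 in control non-hair cells, which overlap, and the part of such cells in the hair cell results was not tested. The 12 skeletal muscle markers summed to 3.99 to 4.99 in control hair cells and 3.39 to 4.44 in control non-hair cells, and 7 of the 12 averaged under 3 reads a replicate in either. Only 5 of the 12 were tested. In control hair cells 2 of these were called higher (Mylpf and Tnnc2) and 1 lower (Tnnt3), beside 31.9% and 42.2% of all tested genes. In these bulk samples, fewer cells of a type and less RNA per cell cannot be told apart.

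The promoters of the subunits that were high in hair cells are shown first, since Atoh1 and the muscle factors that drive the receptor genes in muscle are all basic helix-loop-helix proteins, which bind E-boxes. Promoters came from RefSeq on GRCm38.p6 and matched 6 of the 8 genes (Chrnd and Rapsn had no entry). Capitals mark the E-box CANNTG, which reads as the same pattern on both strands, in the 250 bases before the annotated start. Each stretch is given 5′ to 3′ on the gene's strand and holds no base of an exon that GENCODE annotates for the gene, but those of Chrna9 and Chrng lie in introns of longer GENCODE transcripts, whose start is farther upstream.
Chrna9, chr5:65966874-65967123, plus strand: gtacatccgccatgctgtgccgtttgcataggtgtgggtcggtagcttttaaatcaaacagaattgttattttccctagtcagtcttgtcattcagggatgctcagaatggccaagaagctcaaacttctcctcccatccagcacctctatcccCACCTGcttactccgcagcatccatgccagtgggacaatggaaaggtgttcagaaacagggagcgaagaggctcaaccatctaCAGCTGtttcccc
Chrna10, chr7:102116829-102116963, minus strand: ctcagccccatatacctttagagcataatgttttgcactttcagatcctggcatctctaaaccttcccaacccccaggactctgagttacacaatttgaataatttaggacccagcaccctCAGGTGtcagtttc
Chrna1, chr2:73580339-73580588, minus strand: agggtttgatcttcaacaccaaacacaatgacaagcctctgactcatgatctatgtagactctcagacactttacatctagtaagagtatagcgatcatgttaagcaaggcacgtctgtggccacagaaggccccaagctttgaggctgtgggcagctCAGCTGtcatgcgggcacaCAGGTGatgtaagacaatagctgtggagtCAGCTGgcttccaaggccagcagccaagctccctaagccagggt
Chrng, chr1:87205561-87205809, plus strand: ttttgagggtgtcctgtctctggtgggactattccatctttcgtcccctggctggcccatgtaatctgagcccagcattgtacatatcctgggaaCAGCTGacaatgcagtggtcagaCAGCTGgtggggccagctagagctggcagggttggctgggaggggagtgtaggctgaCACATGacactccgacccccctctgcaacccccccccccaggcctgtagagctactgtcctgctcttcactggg
The full windows of 250 bases held 3 E-boxes in Chrna1, Chrng and Chrnb1, 2 in Chrna9 and Chrna10 and 1 in Ache. The second E-box of Chrna10, 116 bases before its start, falls across the edge of an annotated exon and is not shown. Over the 27025 promoters in the table, 66.0% held at least 1 CANNTG, 12.1% held 3 or more, and the median was 1. The form CAGCTG, a variant of CANNTG counted among them, was in none of the windows of Chrna10, Chrnb1 and Ache. It stood once in Chrna9 and 2 times each in Chrna1 and Chrng. It was found in 12.8% of all promoters. These matches describe letters and are not measured binding sites.

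The alpha10 subunit gene Chrna10 (chr7:102111266-102116828, minus strand, ENSMUSG00000066279.3) had the highest level of the 8, also per length. Its scores were 662, 642 and 631 in control hair cells, 594, 695 and 659 after gentamicin, 1.21, 1.12 and 1.19 in control non-hair cells, and 1.15, 1.18 and 1.95 in treated non-hair cells. The hair cell replicates with and without drug overlapped, and the 3 control non-hair cell replicates rested on 13 reads in all against 43881 in control hair cells. The alpha9 gene Chrna9 (chr5:65934921-65977326, plus strand, ENSMUSG00000029205.12) had scores of 180, 163 and 174 in control hair cells and of 148, 160 and 158 in treated ones. In non-hair cells its scores lay between 1.00 and 1.21 in all 6 replicates. Every treated hair cell replicate of Chrna9 lay below every control replicate, though by little. On the log2 scale of the scores, gentamicin minus control in hair cells was -0.15 ± 0.11 (SE, n = 3 a group) for Chrna9 and 0.01 ± 0.17 for Chrna10. The 95% limits of -0.39 to 0.08 and -0.36 to 0.37 both spanned 0. Each SE here and below pools the spread of all 4 groups, so these limits are not the spread of hair cells alone. For Chrna10 the pool includes treated non-hair cells, which rest on 4 to 27 reads a replicate. Limits that span 0 therefore do not show an absence of change. Both differences depend on scaling: with scaling by total reads that of Chrna9 was -0.06 and that of Chrna10 0.10.

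Reads from Chrna10 could include reads of Art1, which lies on the opposite strand and shares 2668 bases with it, because the use of strand in counting is not stated in the sources used here. Art1 itself scored 4.23 to 5.65 in control hair cells and 5.08 to 6.40 in treated ones.

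**Figure D1:**
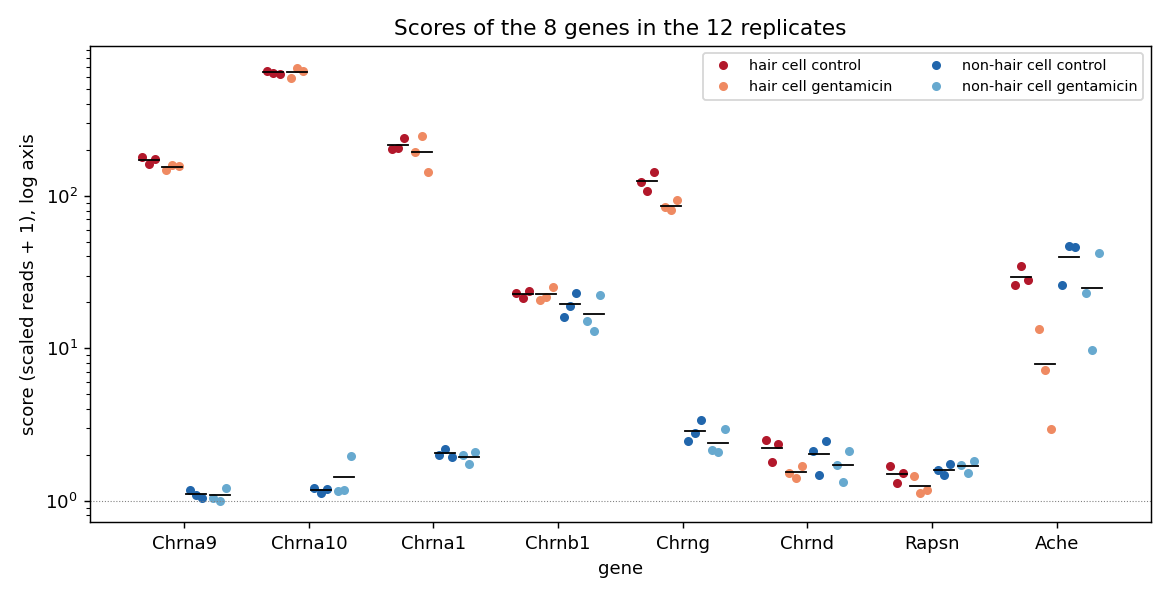
Scores (scaled reads with 1 added, log axis) of the 8 genes in each of the 12 replicates, with a bar at each group mean and a dotted line at 1, the score of no reads. Chrna9, Chrna10, Chrna1 and Chrng stand high in all 6 hair cell replicates and near 1 to 3 in non-hair cells, Chrnb1 is alike in the 4 groups, and Ache is lowest in treated hair cells.

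Of the muscle subunits, the ligand-binding alpha1 gene Chrna1 (chr2:73563215-73580338, minus strand, ENSMUSG00000027107.3) had scores of 204, 207 and 239 in control hair cells. After gentamicin they were 193, 247 and 144, so that replicate 3 lay lowest of the 6 and replicate 2 highest. In non-hair cells Chrna1 scored 1.75 to 2.19 over the 6 replicates. The gamma gene Chrng (chr1:87204657-87212694, plus strand, ENSMUSG00000026253.14), whose subunit marks the embryonic form, had 124, 108 and 142 in control hair cells and 84.6, 80.4 and 94.0 after gentamicin. All treated replicates were below all controls, and the log2 difference was -0.52 ± 0.17 (95% limits -0.89 to -0.16). Non-hair cells scored 2.07 to 3.39 for Chrng.

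The beta1 gene Chrnb1 (chr11:69784036-69795943, minus strand, ENSMUSG00000041189.9) differed from the other high subunits in being spread over both populations. Its scores were 23.1, 21.4 and 23.9 in control hair cells, 20.8, 21.7 and 25.4 after gentamicin, 16.1, 19.0 and 23.0 in control non-hair cells and 15.1, 13.0 and 22.3 in treated non-hair cells. All 4 groups overlapped, with a log2 difference in hair cells of -0.01 ± 0.19 with gentamicin.

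The delta gene Chrnd (chr1:87190607-87200070, plus strand, ENSMUSG00000026251.13), the remaining obligate muscle subunit, was close to the floor. It scored 2.51, 1.78 and 2.36 in control hair cells and 1.51, 1.40 and 1.69 after gentamicin, which rest on 18 to 35 and on 10 to 19 reads a replicate. Treated replicates lay below the controls, with a log2 difference of -0.52 ± 0.22 that becomes -1.03 with an offset of 0.1 in place of 1. In control non-hair cells it scored 2.12, 1.48 and 2.47, so that the 2 control populations overlapped. Rapsn (chr2:91035620-91045729, plus strand, ENSMUSG00000002104.11) was lower still, at 1.69, 1.30 and 1.51 in control hair cells, 1.45, 1.13 and 1.18 after gentamicin, 1.58, 1.48 and 1.73 in control non-hair cells and 1.70, 1.52 and 1.81 in treated non-hair cells. These are 3 to 23 reads a replicate, and an antisense transcript, Gm13778, overlaps the gene. The log2 difference of Rapsn with gentamicin in hair cells was -0.26 ± 0.14 with overlapping replicates, and -0.82 with an offset of 0.1 in place of 1.

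To order the 8 genes, levels were divided by length, as the score less 1 per kilobase of merged GENCODE exons. In control hair cells the order was Chrna10 at 245 ± 6.05 (SD, n = 3), Chrna9 at 56.6 ± 2.91, Chrna1 at 49.2 ± 4.45, Chrng at 29.7 ± 4.11, Chrnb1 at 8.61 ± 0.521, Ache at 6.17 ± 0.998, Chrnd at 0.369 ± 0.117 and Rapsn at 0.278 ± 0.110. Chrna9 (53.5 to 59.2) and Chrna1 (46.2 to 54.3) overlapped, as did Chrnd and Rapsn, while the other neighbors in this order did not. With the longest transcript as the length, Chrna9 rose to 92.9 and no longer overlapped Chrna1, and Chrng at 44.5 overlapped Chrna1. Of the summed level of the 6 subunits per kilobase, Chrna10 made up 62.9% ± 1.92 in control hair cells and 66.5% ± 1.57 in treated ones, Chrna9 14.5% ± 0.418 and 13.7% ± 0.541, and Chrna1 12.6% ± 1.05 and 11.8% ± 2.66. Chrng went from 7.62% ± 0.912 to 5.56% ± 0.693, with the treated replicates (4.77% to 6.09%) all below the controls (6.80% to 8.60%). The Chrna10 share had all treated replicates (65.2% to 68.3%) above the controls (60.8% to 64.4%). The Chrnd share, close to the floor, had them below (0.0306% to 0.0572% against 0.0626% to 0.116%).

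Within each replicate, Chrna10 stood 4.20 to 4.56 times above Chrna9 per kilobase in control hair cells and 4.65 to 5.03 times in treated ones, or 2.68 to 2.90 and 2.96 to 3.21 times with the longest transcript as the length. Chrna1 stood 101 to 199 times above Chrnd in control hair cells and Chrng 64.3 to 109 times above it (90.4 to 178.2 and 86.4 to 146.0 times with the longest transcript), although all are subunits of the same muscle receptor. In control non-hair cells the order was different. Ache at 8.38 ± 2.61 and Chrnb1 at 7.26 ± 1.37 led and overlapped, and the other 6 genes lay between 0.0312 and 0.450 on average.

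**Figure D2:**
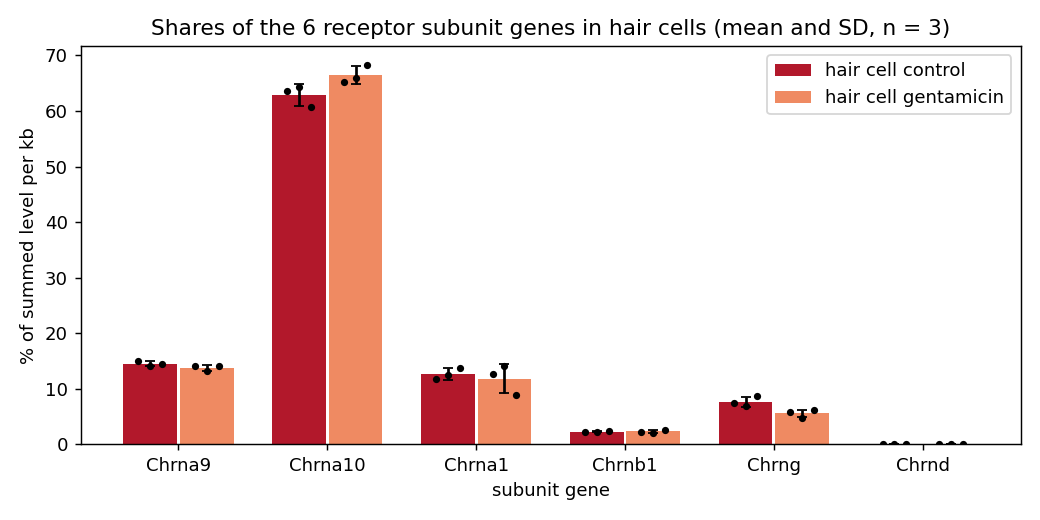
Share of each of the 6 receptor subunit genes in their summed level per kilobase of merged exons (percent), in control and gentamicin-treated hair cells, with bars at the mean, error bars of 1 SD and points for the 3 replicates. Chrna10 takes 62.9% and 66.5% on average, and a share also moves with the other genes in the sum. Replicates do not overlap for Chrna10 (60.8–64.4% and 65.2–68.3%), Chrng (6.80–8.60% and 4.77–6.09%) or the very low Chrnd (0.0626–0.116% and 0.0306–0.0572%).

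Ache (chr5:137287519-137294466, plus strand, ENSMUSG00000023328.14) was the member with the largest gentamicin difference. Its scores were 25.9, 34.7 and 28.0 in control hair cells and 13.4, 7.23 and 2.96 in treated hair cells, or 574 to 789 and 55 to 300 reads. Every treated replicate was below every control, and the treated replicates themselves were widely spread. The log2 difference was -2.15 ± 0.56 with 95% limits of -3.39 to -0.92. In non-hair cells Ache had 25.8, 47.1 and 46.4 in controls and 23.1, 9.69 and 42.1 after gentamicin, with overlapping replicates. The tested log2 difference there was -0.86 ± 0.56 and missed the threshold (limma adjusted p = 0.462). With a replicate left out it ran from -1.36, without treated non-hair cell replicate 3, to -0.30, without treated non-hair cell replicate 2, and was called in none of these fits.

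Markers of other cells also differed between the replicates. The summed 10 neuron markers stood in the same order as Ache over all 6 non-hair cell replicates, control and treated, but not over those of hair cells. In non-hair cells both were lowest in treated replicate 2 (Ache 9.69, sum 288) and highest in control replicate 2 (47.1 and 1594). The neuron sum was 609 to 1594 in control non-hair cells. In hair cells this sum was 1127 to 1330 in controls and 1049 to 1197 with gentamicin, but most of it is Nefm and Nefl, at 632 to 748 and 312 to 366 in control hair cells. With gentamicin in non-hair cells, 0 of the 10 neuron markers were called higher and 1, Rbfox3, lower, beside 3.18% and 2.26% of all tested genes. Beside 12.7% of all tested genes called higher and 14.8% lower in hair cells with gentamicin, 0 of the 10 neuron markers were called there. Their treated means ran from 14.3% to 102.0% of the control after 1 was taken off, with Tubb3, Nefl, Nefh, Prph and Stmn2 below the control in all replicates and the other 5 overlapping, among them Nefm, Snap25 and Pou4f1 at 101.4%, 97.1% and 102.0%. The 6 Schwann cell markers summed to 229 to 283 in control and 118 to 194 in treated hair cells. Of these 6, 3 (Sox10, Mbp and Foxd3) were called lower, beside 14.8% of all tested genes. The 6 supporting cell markers summed to 696 to 781 in control and 420 to 694 in treated hair cells. Hes5 was the 1 of these 6 called lower, near the same 14.8% of all tested genes. Within treated hair cells, replicate 3 had the lowest Ache and the highest sums of all 3 lists, of which the neuron sum is mostly Nefm and Nefl. The part of these cells in the Ache result was not tested. Antisense to Ache lies Gm42456, whose reads could not be told apart.

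**Figure D3:**
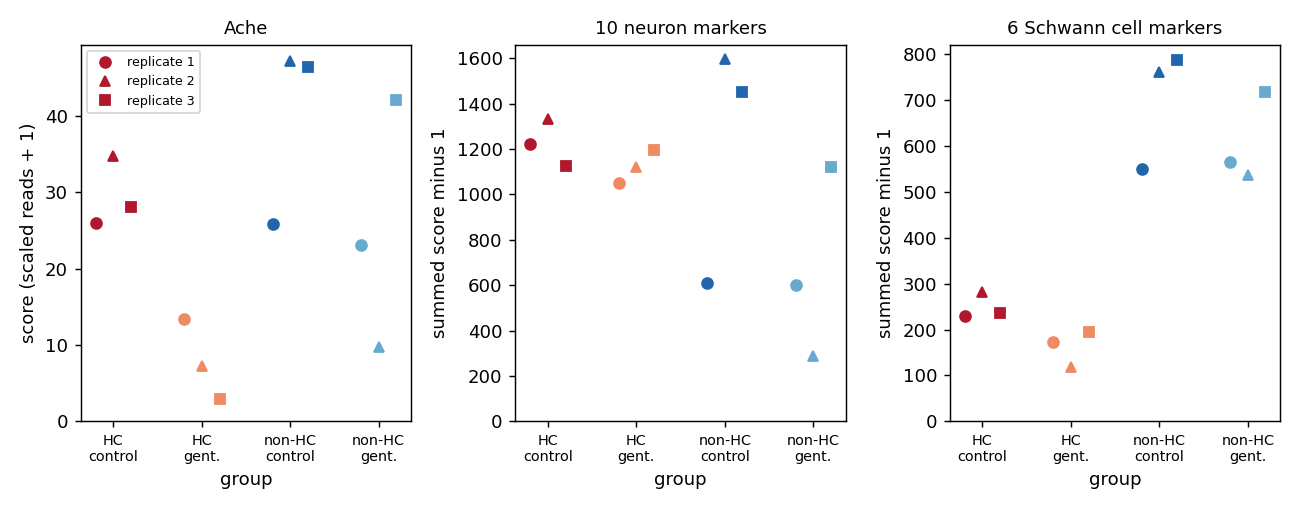
Score of Ache and the summed scores (less 1) of 10 neuron and 6 Schwann cell markers in the 12 replicates of hair cells (HC) and non-hair cells, with a symbol for each replicate number and axes from 0. Ache lies at 25.9 to 34.7 in control and 2.96 to 13.4 in treated hair cells, and in treated non-hair cell replicate 2 Ache and the neuron markers are both lowest of their population.

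Gentamicin differences of the 8 genes were set beside those of all 16077 tested genes. The call rule in either population asked for more than a 1.2-fold difference and for an unadjusted p below 0.01. In hair cells limma called 12.7% of all genes higher and 14.8% lower. By the same rule 0 of the 8 members were called higher and 2, Chrng and Ache, lower; the members were chosen partly on this comparison, so nothing is read from the count. The split depends on scaling: 46.1% of all called genes were higher with the deposited scores and 63.6% with scaling by total reads. The call of Chrng was lost with scaling by total reads, by median ratios, with an offset of 0.1 or with no minimum of reads, and with any replicate left out other than control replicate 2. That of Ache was lost without control replicate 2 (log2 difference -2.03) or treated replicate 3 (-1.58). The median log2 difference of the 8 was -0.22, against -0.09 over all tested genes.

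In non-hair cells limma called 3.18% of all genes higher and 2.26% lower, with 58.5% of the calls higher (69.2% with scaling by total reads). Chrna9 and Chrna10 passed the minimum of reads through hair cells and had 7 to 36 reads a group in non-hair cells, so their test there shows nothing in either direction. Of the other 6 members, 0 were called higher and 0 lower, and 0 had an unadjusted p under 0.05. Chrna1, Chrng, Chrnd and Rapsn were also low there, at 45 to 142 reads a group, and Ache had the largest difference, -0.86. Chrnb1 had -0.22 ± 0.19 (adjusted p = 0.572) and Chrng -0.27 ± 0.17 (adjusted p = 0.427), and the 95% limits of Chrnb1, -0.64 to 0.19, allow a change of the size that Chrng showed in hair cells. The difference between the responses, hair cells minus non-hair cells, was called at an adjusted p under 0.05 for 6.85% of all genes as higher and 6.57% as lower, with 51.1% of the calls higher (67.7% with scaling by total reads). Of the members 0 were called in either direction, from which nothing is read, since their hair cell responses chose the members. For Ache this difference was -1.29 ± 0.80 and for Chrng -0.25 ± 0.24, with limits of -3.04 to 0.45 and -0.77 to 0.27 that both include 0.

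**Figure D4:**
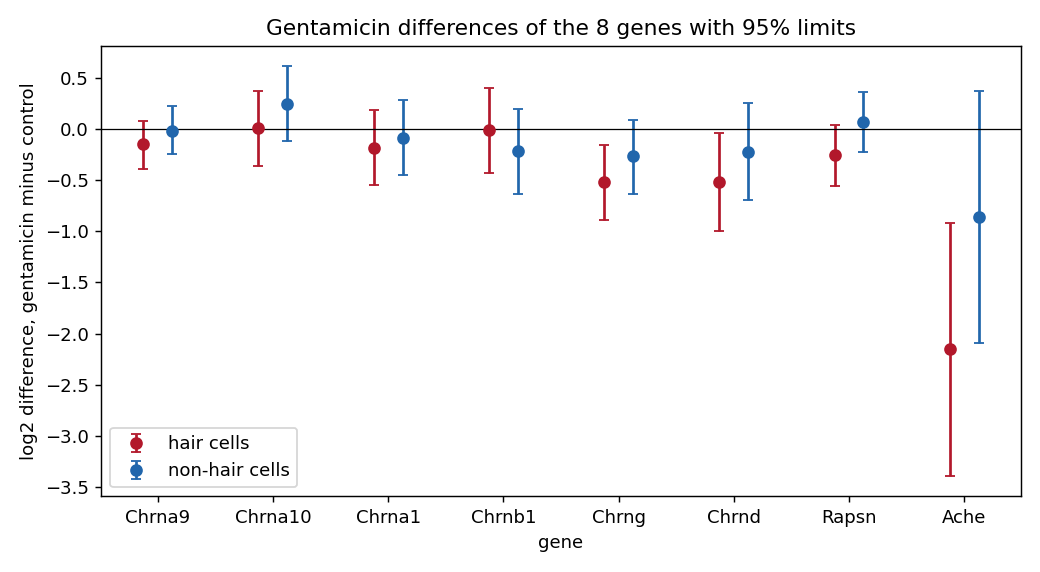
Log2 difference of gentamicin minus control for the 8 genes in hair cells and non-hair cells, points with 95% limits from the fit of all genes. Ache in hair cells lies at -2.15, Chrng and Chrnd at -0.52 each, and the limits of all 8 genes in non-hair cells include 0.

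Without drug, hair cells were compared with non-hair cells at an adjusted p under 0.05, a rule that called 31.9% of all genes higher and 42.2% lower in hair cells. Among the members 4 were higher (Chrna9, Chrna10, Chrna1 and Chrng) and 0 lower; since hair cell levels chose the members, this is a description. The log2 differences were 9.10 ± 0.17 for Chrna10, 7.30 ± 0.11 for Chrna9, 6.72 ± 0.17 for Chrna1 and 5.44 ± 0.17 for Chrng, values that the added 1 holds down where non-hair cells have few reads. They were 0.25 ± 0.19 for Chrnb1, 0.15 ± 0.22 for Chrnd, -0.09 ± 0.14 for Rapsn and -0.39 ± 0.56 for Ache.

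The genes whose scores were most like each member over the 12 replicates were found by Pearson's r of the log2 scores, as a description. The points share their libraries, and for the 4 hair cell genes r mainly follows the gap between the populations. For Chrna9 they were Klhdc7b, Plscr5 and Gipc3, and for Chrna10 the hair cell factors Pou4f3 and Barhl1 and the deafness gene Loxhd1, all with r of 1.000. Chrna1 was closest to Kcna10, Cabp2 and Gm14635, and Chrng to Dnahc11, Fam19a3 and Prkaa2, all with r of 0.999. Chrnb1 was closest to Mfsd6l (0.971), Hs3st4 (0.948) and Faah (0.946). Ache was closest to Matk (0.970), Vopp1 (0.960) and Aire (0.959), and Matk had mean scores of 22.8, 9.78, 28.1 and 16.3 in control and treated hair cells and control and treated non-hair cells. Chrnd was closest to the Notch target Hes5 (0.863), Gcnt7 (0.852) and 4930562C15Rik (0.849), and Rapsn to BC004004 (0.902), Ak3 (0.896) and Cyb5r3 (0.893).

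Beyond these 8 genes, 33 other genes of cholinergic signaling in 6 lists were all found in the files, and 27 passed the minimum of reads. The lists too were chosen with earlier results of these data known, which limits the p-values and shares given for them. Gentamicin was followed in hair cells by 1 gene called higher and 5 called lower of the 27, or 3.70% and 18.5% where all tested genes gave 12.7% and 14.8%, so that the share called lower is near the background. At an unadjusted p under 0.05 the counts were 2 and 10, and the median log2 difference was -0.16 against -0.09 over all tested genes. Kcnn2, the SK2 channel that works with the alpha9 and alpha10 receptor, was the gene called higher. It scored 59.0, 51.5 and 60.8 in control hair cells and 78.3, 110.6 and 73.8 in treated ones, which do not overlap, for a log2 difference of 0.60 ± 0.16 (adjusted p = 0.0142). The call was lost without control replicate 2 or without treated replicate 2 (0.52 and 0.42). Kcnn2 showed -0.05 ± 0.16 in non-hair cells (adjusted p = 0.900), and the responses of the 2 populations differed by 0.65 ± 0.22, which missed the threshold (adjusted p = 0.0762). Kcnma1, the large-conductance potassium channel, had -0.16 ± 0.29 in hair cells (adjusted p = 0.720).

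Receptor assembly and accessory proteins held 3 of the 5 genes called lower. Lynx1, a membrane-tethered modulator of nicotinic receptors, scored 2.95, 3.01 and 2.94 in control hair cells and 2.07, 1.50 and 1.50 in treated ones (log2 difference -0.83 ± 0.14, adjusted p = 0.00127). In non-hair cells it had 20.5 ± 1.13 and 20.6 ± 1.39 (SD, n = 3), and the responses differed (-0.83 ± 0.20, adjusted p = 0.0195), a call lost without hair cell control replicate 2 or without treated hair cell replicate 2. Its relative Ly6e had 19.7 ± 1.60 in control and 9.40 ± 2.60 in treated hair cells (-1.10 ± 0.25, adjusted p = 0.00658), and Ly6h 128.8 ± 11.3 and 86.5 ± 15.3 (-0.58 ± 0.16, adjusted p = 0.0185). The call of Ly6h was lost with scaling by total reads, without control replicate 2 or 3 and without treated replicate 1 or 2. The chaperone Ric3, which assists nicotinic receptor assembly, had 46.5, 47.8 and 45.0 in control and 69.8, 82.1 and 74.5 in treated hair cells without overlap, yet missed the threshold in the fit of all 4 groups (0.70 ± 0.27, adjusted p = 0.0694). In a fit of the 2 hair cell groups alone Ric3 was called, as were Colq, Chrnd and Tmem35. Tmem35, the older symbol of a chaperone gene for nicotinic receptors, had -0.58 ± 0.19 (adjusted p = 0.0365) and was not called by the rule above.

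Endplate organizers gave the other 2 genes called lower. Agrn, the nerve-derived organizer agrin, had 408.8 ± 39.8 in control and 236.1 ± 56.0 in treated hair cells (-0.82 ± 0.16, adjusted p = 0.00273). Its receptor Lrp4 had 14.4 ± 3.24 and 8.15 ± 2.38 (-0.84 ± 0.25, adjusted p = 0.0256), a call lost without control replicate 2 or without treated replicate 1 or 2, and with scaling by total reads. The muscle kinase gene Musk was at 1.15 ± 0.0928 in control hair cells, and its adaptor Dok7 at 28.2 ± 1.49 with 0.24 ± 0.29 on the log2 scale after gentamicin (adjusted p = 0.558). Lynx1, Ly6e, Agrn and Lrp4 were all higher in non-hair cells, which held them in controls so that hair cells had 0.101, 0.0521, 0.305 and 0.0695 of that level after 1 was taken off. The 5 mesenchyme markers, of cells of the non-hair cell sort, also had lower sums in treated hair cells. The sums were 174, 440 and 184 in control replicates and 89.0, 118 and 142 in treated ones, so that 1 control stood far above the others. Of the 5 markers, 2 (Col1a2 and Col3a1) were called lower and 0 higher, beside 14.8% and 12.7% of all tested genes. The part of such cells in these 4 results was not tested.

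Among genes that make, carry or break acetylcholine, Colq, the collagen tail of acetylcholinesterase, was in hair cells at 15.5, 16.6 and 15.6 without drug and 10.6, 12.7 and 8.87 with it. The replicates did not overlap, but the log2 difference of -0.58 ± 0.22 was not called (adjusted p = 0.0632). Bche, the related butyrylcholinesterase, had 32.1 ± 5.16 and 35.9 ± 3.79 (0.17 ± 0.18, adjusted p = 0.524). The choline transporter gene Slc5a7 was found in non-hair cells (10.9 ± 5.42) and at 1.35 ± 0.330 in hair cells. Chat, the enzyme of acetylcholine synthesis, and the vesicular transporter Slc18a3 had 15 and 0 reads over the 12 replicates and were not tested.

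None of the 8 tested other nicotinic subunits was called with gentamicin in hair cells: 0 were higher and 0 lower, with 2 lower at an unadjusted p under 0.05 (Chrna2 and Chrna4). The neuronal beta subunit gene Chrnb2 scored 133.1, 128.4 and 133.1 in control and 147.5, 145.1 and 148.2 in treated hair cells (0.16 ± 0.41, adjusted p = 0.803). Its hair cell replicates did not overlap. The SE pools the spread of all 4 groups, and non-hair cells were wide, at 8.40 to 21.8 in controls and 5.16 to 18.2 with gentamicin. Chrnb2 and Chrnb4 were higher in control hair cells than in control non-hair cells, by 3.08 ± 0.41 (adjusted p = 3.4e-05) and 3.05 ± 0.16 (adjusted p = 1.59e-08) on the log2 scale, as were Chrna6 (1.62 ± 0.20) and, at 15 to 30 reads a replicate, Chrna2 (0.82 ± 0.15). Chrna4, Chrna7 and Chrnb3 were lower in hair cells, by -2.21 ± 0.37, -0.83 ± 0.23 and -1.88 ± 0.18. Chrna3 and the adult muscle subunit gene Chrne had 73 and 21 reads in all and were not tested. Of the muscarinic receptors, Chrm4 was higher (1.50 ± 0.18) and Chrm3 lower (-0.81 ± 0.20) in hair cells, 0 were called with gentamicin (1 was lower at an unadjusted p under 0.05, Chrm1), and Chrm2 and Chrm5 were not tested.

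Over all 6 lists, hair cells had 10 of the 27 tested genes higher and 12 lower than non-hair cells without drug, or 37.0% and 44.4%, close to the 31.9% and 42.2% of all tested genes. The higher ones included Kcnn2 (3.71 ± 0.16, adjusted p = 2.3e-09), Colq (2.99 ± 0.22, adjusted p = 2.14e-07), Dok7 (2.12 ± 0.29), Ric3 (2.07 ± 0.27) and Ly6h (1.91 ± 0.16). Lower in hair cells were, besides those named, Prima1, Slc5a7, Tmem35, Musk, Lynx1, Ly6e, Agrn and Lrp4, of which Ly6e had the largest log2 difference, -4.14. Prima1 encodes the membrane anchor of acetylcholinesterase. In non-hair cells 0 of the 27 were called with gentamicin in either direction, with 1 higher and 3 lower at an unadjusted p under 0.05. For the difference between the responses 0 were called higher and 1, Lynx1, lower.

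**Figure D5:**
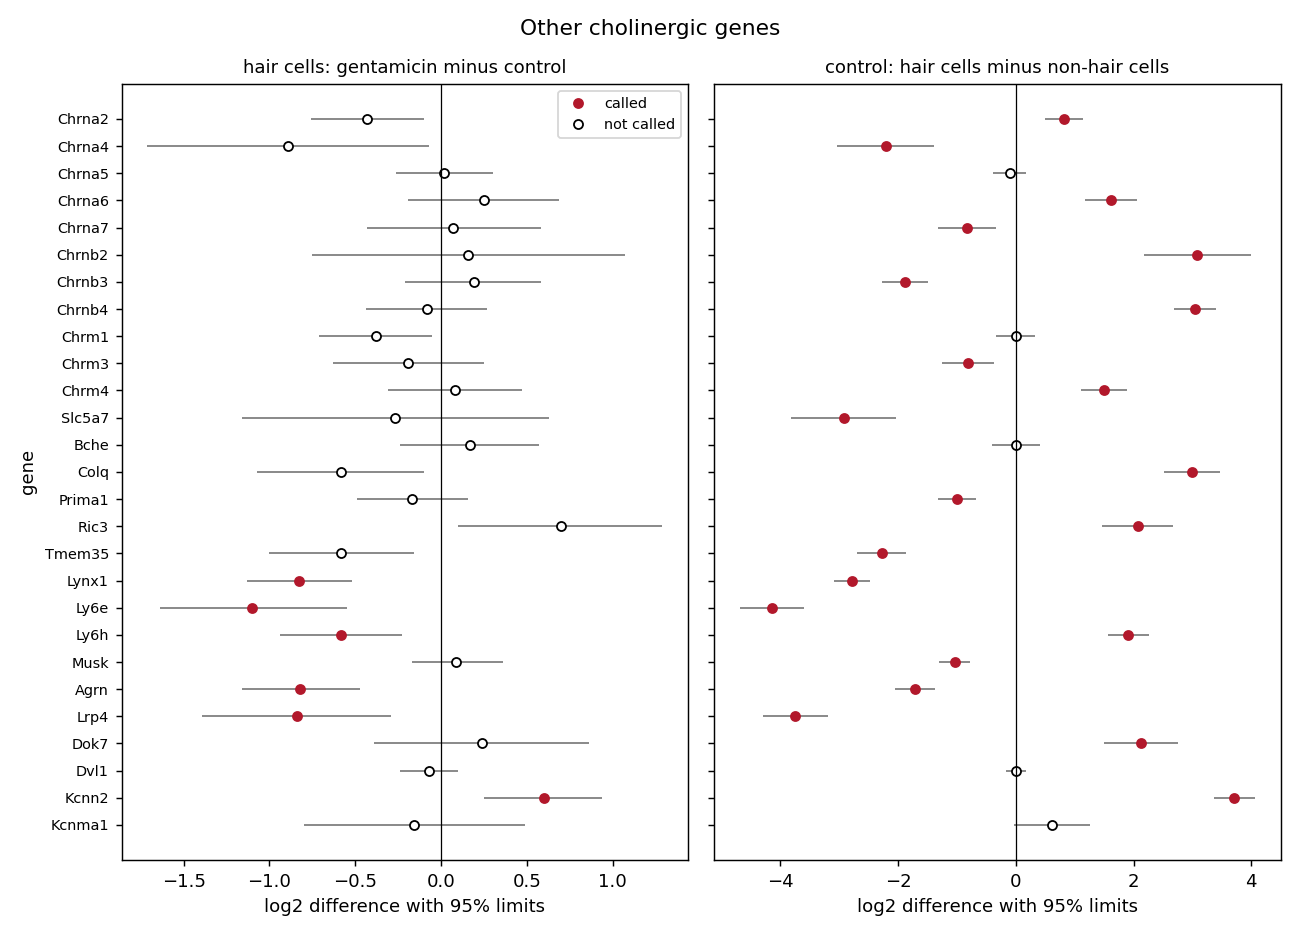
Log2 differences with 95% limits of the 27 tested genes of the 6 cholinergic lists, gentamicin minus control in hair cells on the left and hair cells minus non-hair cells without drug on the right, filled where called. On the left only Kcnn2 (0.60) is called higher, and Lynx1, Ly6e, Ly6h, Agrn and Lrp4 are called lower.

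The scores of the skeletal muscle markers are not divided by length and were not ranked against the receptor genes. Of the 12, Mylpf had the largest score in control hair cells, 2.95, 2.92 and 3.44. Myog and Myod1, which drive the receptor genes in muscle, scored 1.48 to 1.60 and 1.04 to 1.17. Only 5 of the 12 muscle markers were tested, and 1 was called higher in treated hair cells, beside 12.7% of all tested genes. This was the factor gene Myf5, which went from 1.04, 1.04 and 1.05 to 2.53, 3.51 and 2.14 (log2 difference 1.35). Of its 134 reads, 129 were in treated hair cells. Myf5 thus passed the minimum of reads only through that group, and nothing is read from its call. Myf6 beside it, too low to be tested, went from 1.00–1.04 to 1.39–2.59.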

How the data were processed

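Cochlear hair cells and non-hair cells were sequenced with and without gentamicin, 3 replicates a group. Per the paper's methods, the authors trimmed 50-base single-end reads, aligned them to mm10 with TopHat 2 in PartekFlow and normalized them. The deposited value is a score, which the methods call RPKM. It carries no division by length: less 1 and divided by the step of 1 read, 80.0–81.5% of values up to 20 reads were whole within 0.05 and the others were not, so no count test was used. Recovered reads were 22399444–28150850 a replicate, which limits genes near the minimum. All 4 groups were fitted in 1 model with limma 3.58.1 (R 4.3.3, trended variance) on log2 scores of the 16077 genes with at least 100 recovered reads over 12 replicates. Adjusted p-values are Benjamini-Hochberg over all tested genes. The model fit was tested on simulated data. Gene positions and lengths are from GENCODE M21 (GRCm38), and tables were handled in Python 3.11.15.

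The 8 members and all lists were chosen with earlier results of these data known. Named genes are the members, list genes called in any comparison or under the minimum of reads, the 3 genes most like each member, and the highest markers; genes outside this rule were chosen after their values were seen. Replicate numbers from the file headers paired control hair cells with control non-hair cells (correlation of deviations from the group means 0.200 to 0.316 for the 3 same-numbered pairs) but not treated with control samples (0.037 to 0.052 in hair cells, -0.232 to 0.683 in non-hair cells). Treated hair cells and treated non-hair cells were not paired throughout either, with 0.377, -0.039 and -0.018 for replicates 1, 2 and 3. Alternatives were other scalings, an offset of 0.1, other minimums, a replicate block, fits of only the 2 groups compared, each replicate left out and other thresholds.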

Additional observations from a re-analysis of the deposited data

Results flagged for a closer look

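Lynx1, the tethered modulator of nicotinic receptors, was singled out because its gentamicin response differed between the populations by the test of the difference itself. The response was -0.83 on the log2 scale in hair cells and 0.00 in non-hair cells, so that they differed by -0.83 (limma, adjusted p = 0.0195). All 3 treated hair cell replicates (2.07, 1.50 and 1.50) were below the 3 controls (2.95, 3.01 and 2.94). These scores rest on 12 to 26 reads a treated replicate and 42 to 47 a control. Control hair cells had 0.101 of the level of control non-hair cells after 1 was taken off. The part of cells of the non-hair cell sort in this result was not tested. The difference lost its call without hair cell control replicate 2 (adjusted p = 0.0503) or without treated hair cell replicate 2 (adjusted p = 0.0502). None of the 8 members had responses of opposite direction in all replicates of the 2 populations. With 3 replicates a group, no group was tested for single replicates that stand apart.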

How the results depend on the processing

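Of the calls among the 8 members and the 33 listed genes, the 26 between control populations changed least: under every alternative other than a minimum of 1000 reads, which drops 6 of them from testing, all remained. With gentamicin in hair cells, 2 members were called lower. That count was 1 with scaling by total reads, with scaling by median ratio, with an offset of 0.1 and with no minimum of reads, 3 with the replicate block and in a fit of only the 2 groups compared, and 0 to 1 with a replicate left out. Among the other genes 1 was called higher (2 in a fit of only the 2 groups compared, 0 to 1 with a replicate left out) and 5 lower (3 with scaling by total reads, 7 with an offset of 0.1, in a fit of only the 2 groups compared and at an adjusted p under 0.05, 3 to 6 with a replicate left out). In non-hair cells, 0 other genes were called higher (1 with an offset of 0.1, 1 with the replicate block, 0 to 1 with a replicate left out) and 0 lower (0 to 3). For the difference between the responses, 0 were called higher (1 with scaling by total reads, 0 to 1 with a replicate left out) and 1 lower (2 with no minimum of reads, 3 with the replicate block, 0 at an adjusted p under 0.01, 0 to 3 with a replicate left out). The cause of these shifts was not tested.

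Some small responses of non-hair cells changed sign with a replicate left out: Chrna9 ranged from -0.10 to 0.04, Chrna10 from -0.00 to 0.37, Lynx1 from -0.05 to 0.04 and Kcnn2 from -0.13 to 0.03 on the log2 scale. Replicate numbers did not pair treated with control samples, so the replicate block there is an alternative only; besides the counts above it added Chrnd and Tmem35 to the hair cell calls and dropped Lrp4. Between the control populations, where the numbers paired, the replicate block changed no call. Depth limits Chrnd and Rapsn (260 and 153 reads over 12 replicates), and Chrna9 and Chrna10 in non-hair cells, where the offset sets the size of every difference.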
